A study of Mus musculus with 2 samples.

Results

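The genes described here are 10 genes of the contractile apparatus and of smooth muscle: Acta2, Tagln, Myh11, Cnn1, Myl9, Tpm1, Tpm2, Actg2, Des and Cald1. They were chosen by name, and their rows were taken from both deposited count tables, which together list 21722 genes. All 10 are rows of the fibrosis table and 9 are rows of the normal one, where Cnn1 had no UMI and is left out. The levels were followed across stellate cells, portal fibroblasts, mesothelium and endothelium.

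Single-cell RNA-seq (10x Chromium 3′ chemistry) was performed on liver non-parenchymal cells of male C57BL/6 mice that were 8 weeks old. The fibrosis library came from 1 mouse injected with CCl4, a hepatotoxin, 2 times a week for 6 weeks, and the normal library, which the labels call the quiescent state, from 1 mouse given the olive oil alone. Cells were named from their RNA alone. Each condition is 1 library, so every ratio below compares 2 mice, intervals cover counting error only, and no test between conditions was possible.

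Smooth muscle force is produced by myosin filaments (heavy chain Myh11 with the regulatory light chain Myl9) that pull on actin filaments (Acta2, Actg2). Tropomyosins (Tpm1, Tpm2), caldesmon (Cald1), calponin (Cnn1) and transgelin (Tagln) bind actin and modulate or stabilise these filaments, and desmin (Des) builds intermediate filaments. In the liver, quiescent stellate cells are pericytes of the sinusoids that store retinoids and are known in rodents for desmin. Stellate cells and portal fibroblasts can become myofibroblasts in chronic injury, for which smooth muscle α-actin, the product of Acta2, is the customary marker.

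Many of these genes are bound at CArG boxes by serum response factor. The 250 bases before the start of Acta2 (chr19:34255374-34255623, minus strand) and of Myl9 (chr2:156775214-156775463, plus strand), from RefSeq on GRCm38.p6, are shown 5′ to 3′ because they were the members' windows that held such boxes, which are in capitals. The windows end at the RefSeq starts, which lie 217 bases (Acta2) and 44 bases (Myl9) inside the gene limits of the annotation used for the positions below, GENCODE vM21, so that part of each window is within the longer gene model.

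Acta2: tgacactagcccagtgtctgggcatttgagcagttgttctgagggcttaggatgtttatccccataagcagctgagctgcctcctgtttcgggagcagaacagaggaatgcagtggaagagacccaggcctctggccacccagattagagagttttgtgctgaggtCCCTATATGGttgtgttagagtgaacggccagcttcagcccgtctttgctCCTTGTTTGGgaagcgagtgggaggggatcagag

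Myl9: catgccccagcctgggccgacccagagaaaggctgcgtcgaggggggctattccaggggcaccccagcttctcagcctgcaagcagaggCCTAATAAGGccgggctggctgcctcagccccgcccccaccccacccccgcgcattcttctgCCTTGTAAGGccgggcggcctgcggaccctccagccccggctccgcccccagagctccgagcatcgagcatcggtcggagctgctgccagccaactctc

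Both strands were searched at once, because the CArG box is its own reverse complement in form. A full box, with 6 bases of A or T at its centre, stood in 1 of the 8 windows of the 7 members with an entry (Myl9) and in 1.47% of all 32851 windows. With 1 G or C allowed among the 6 central bases, 2 of 8 member windows (Acta2, Myl9) and 8.59% of all windows held a box. Des, Tpm1, Tpm2, Cald1 and Cnn1 had none in these windows. Tagln, Myh11 and Actg2 had no entry.

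Positions are those of GENCODE on GRCm38. Acta2 lies on chromosome 19 (34241090 to 34255590, minus strand), Tagln on 9 (45929619 to 45936058, minus), Myh11 on 16 (14194535 to 14291372, minus) and Des on 1 (75360329 to 75368579, plus). Cald1 (6, 34598500 to 34775473, plus) and Tpm1 (9, 67022590 to 67049406, minus) are transcribed in smooth muscle and non-muscle forms, which counts per gene do not separate. Tagln shares 1241 exonic bases with the antisense gene Gm48529, and 108 with Pcsk7, and Des shares 220 with the antisense gene Gm15179. Whether counting used strand is not given in the sources used here, so reads of these pairs may not be separable. The 2 actins Acta2 and Actg2 have near-identical coding sequences. The authors counted only reads that mapped uniquely, so reads that fit both could be lost.

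After filtering, 7471 normal and 6132 fibrosis cells remained. Stellate-like cells numbered 119 and 396, portal-fibroblast-like cells 44 and 80, mesothelial-like cells 45 and 48, and sinusoidal endothelial-like cells 1722 and 1384 in the normal and the fibrosis library. Sinusoidal endothelial-like cells were all endothelial-like cells not named central vein or portal vessel. Of these, 661 and 449 were zone 1-like and 418 and 289 zone 2/3-like, and the rest lay in unnamed or cycling sub-clusters. In fibrosis the rest included 209 and 142 cells in sub-clusters led by haemoglobin genes. Of each marker list 1 gene is given here: Lrat (9.60 and 8.02 UMIs per 10000) in stellate-like cells, Dpt (34.9 and 19.6) in portal-fibroblast-like cells, Msln (18.6 and 6.21) in mesothelial-like cells and Stab2 (12.9 and 12.6) in sinusoidal endothelial-like cells. In normal portal-fibroblast-like cells 16 of 16 portal fibroblast markers were higher than in the other mesenchymal cells. In the fibrosis ones only 10 of 16 were. Portal-fibroblast-like cells of the fibrosis library also held the stellate markers Lrat at 3.30 and Reln at 3.37, against 0.141 and 0 in the normal library. The stellate-like cells also held endothelial RNA, with Stab2 at 5.13 and 4.44. Re-clustering split off 60 normal and 115 fibrosis cells that were named from stellate markers, called stellate sub-clusters below, with Stab2 at 1.20 and 0.701 and Lrat at 16.2 and 17.7. The genes that led them included immune genes as well, Ccl2 and Ighm in the normal library and S100a8 and S100a9 in 1 sub-cluster of the fibrosis library. The other stellate-like cells fell into different sub-clusters in each library. In the normal library the remaining 59 lay in a sub-cluster led by the immune genes Mmp12, Ltf, Cxcl13, Ngp and Camp, with cell cycle genes such as Top2a and Mki67 after them. In the fibrosis library 132 lay in sub-clusters named from endothelial markers, 59 in one named from macrophage markers but led by the antibody genes Jchain, Igkc and Igha, and 89 in sub-clusters with cell cycle genes. Ratios of the members are therefore given for all stellate-like cells and for the stellate sub-clusters. No cluster was named smooth muscle or pericyte.

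A level is the summed UMIs of a gene for every 10000 UMIs that a group of cells held, and its 95% interval is an exact Poisson one. They are compared for the same gene between groups and not between genes. A member is called higher in fibrosis when its level was at least 2 times that in the normal library and the interval of the ratio lay above 1.

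**Figure D1:**
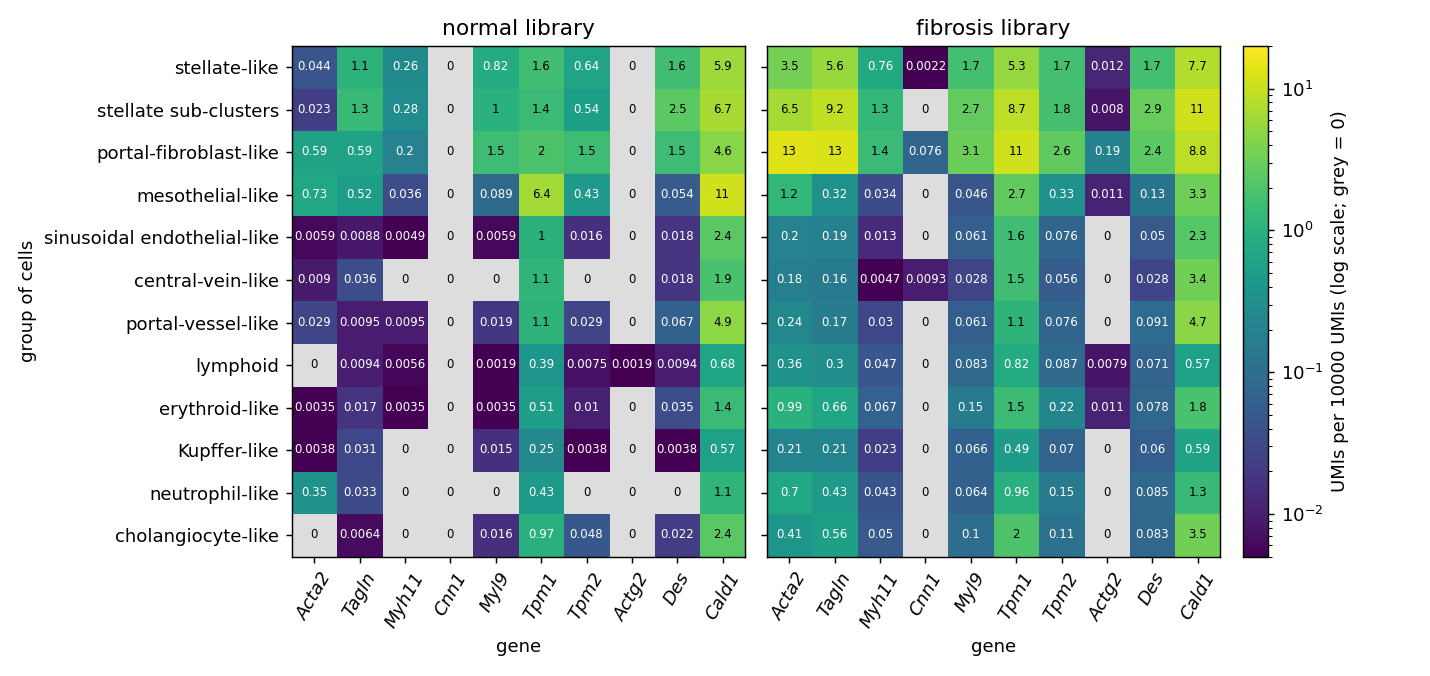
Level of each of the 10 genes (columns, UMIs per 10000 on a log colour scale, grey for 0) in groups of cells (rows) of the normal and the fibrosis library. In the fibrosis library Acta2 was at 13.4 in portal-fibroblast-like cells and 0.356 in lymphoid cells, a group that held 0 Acta2 UMIs in the normal library.

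In stellate-like cells 6 members were called higher in fibrosis: Acta2, Tagln, Myh11, Myl9, Tpm1 and Tpm2. Des and Cald1 were not, and Cnn1 and Actg2 were near 0. The calls of Acta2, Tagln and Tpm1 held under every setting tried. Those of Myl9 (1.618) and Tpm2 (1.996) ended with a mitochondrial limit of 5%, that of Myl9 also (1.806) when cells in the top 5% of doublet scores were left out, and that of Myh11 (1.931) when the members were among the variable genes. Of all 13467 genes with at least 10 UMIs over both groups, 5.98% were called higher by the same rule, and 9 of the members passed that filter. The median ratio over all those genes was 1.04.

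Acta2 had 6 UMIs in the 119 normal stellate-like cells, a level of 0.0439 (95% interval 0.0161 to 0.0955), held by 3 cells (2.52%). In the 396 fibrosis stellate-like cells it had 3182 UMIs, a level of 3.51 (3.39 to 3.63). The ratio was 80.0 (36.7 to 218). Over the settings tried the ratio ran from 10.95 to 279, in the same direction in each, and the cause of these moves was not tested. In the stellate sub-clusters the level was 6.55 (6.11 to 7.01) in fibrosis against 1 UMI in normal cells. An Acta2 UMI was thus seen in few normal stellate-like cells and in 67.4% of those in fibrosis, although the latter were also deeper (median 19795 against 10694 UMIs). After each cell was thinned to 1000 UMIs, 23.5% (19.4 to 28.04) of fibrosis cells and 0 of 119 normal cells held an Acta2 UMI. In the normal group 3 cells would be 2.52%, and the 0 sets no limit on the share that express the gene. Lymphoid cells of the fibrosis library, which should lack the gene and had a median of 2555 UMIs, gave 3.97% after thinning and 10.4% before it.

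Tagln, the actin-binding protein of early smooth muscle differentiation, was already measurable in normal stellate-like cells, at 1.06 (0.895 to 1.25), and was at 5.62 (5.47 to 5.78) in fibrosis. The ratio was 5.30 (4.49 to 6.30), and 6.87 (5.26 to 9.12) in the stellate sub-clusters. Myh11, the heavy chain of smooth muscle myosin, was at 0.263 (0.184 to 0.364) and 0.762 (0.706 to 0.821), a ratio of 2.89 (2.07 to 4.17), and 4.50 (2.51 to 8.89) in the stellate sub-clusters, against 12 normal UMIs. Its light chain partner Myl9 was at 0.819 (0.674 to 0.985) and 1.70 (1.62 to 1.79), and its ratio of 2.08 (1.71 to 2.54) was only just past the limit of 2. In the stellate sub-clusters it was 2.68 (1.95 to 3.77). Myosin genes thus stood much closer to their normal levels than Acta2 did.

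The tropomyosins differed between libraries in the same direction. Tpm1 was at 1.57 (1.37 to 1.80) in normal and 5.34 (5.19 to 5.49) in fibrosis stellate-like cells, a ratio of 3.40 (2.96 to 3.91). Tpm2 was at 0.643 (0.516 to 0.793) and 1.65 (1.57 to 1.74), a ratio of 2.57 (2.07 to 3.23). In the stellate sub-clusters these ratios were 6.19 (4.77 to 8.16) for Tpm1 and 3.26 (2.12 to 5.26) for Tpm2.

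Des, the intermediate filament protein used to mark rodent stellate cells, was at 1.59 (1.39 to 1.82) in normal and 1.67 (1.59 to 1.76) in fibrosis stellate-like cells. Its ratio was 1.05 (0.911 to 1.22), so a difference of more than 1.22 times lies outside the counting interval. In the stellate sub-clusters Des was at 2.46 (2.01 to 2.98) and 2.88 (2.59 to 3.19), with a ratio of 1.17 (0.937 to 1.47). Cald1, which binds actin and tropomyosin, was at 5.94 (5.54 to 6.36) and 7.68 (7.50 to 7.86), with a ratio of 1.29 (1.20 to 1.39), and 1.63 (1.43 to 1.86) in the stellate sub-clusters. These 2 genes were also measured in normal cells, and their intervals of the ratio lay below 2. Counted per cell, without regard to the greater depth of the fibrosis cells, Des was at 1.83 and 3.84 UMIs and Cald1 at 6.82 and 17.6, and both then passed 2 times.

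Cnn1, a calponin of differentiated smooth muscle, and Actg2, the actin of visceral smooth muscle, were scarce. Cnn1 had 2 UMIs and Actg2 11 in the 396 fibrosis stellate-like cells, and neither had any in the 119 normal ones. In the whole fibrosis library Cnn1 had 16 UMIs and Actg2 56, of which 1 portal-fibroblast-like cell held 5 and 17.

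**Figure D2:**
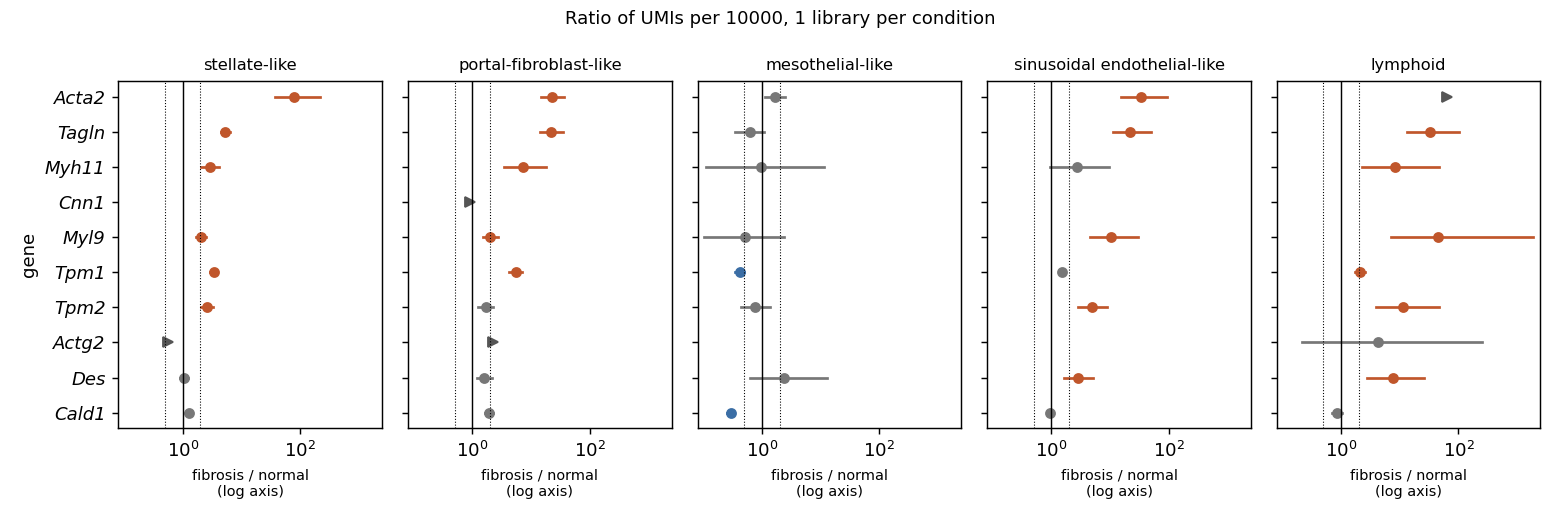
Ratio of the level in fibrosis over that in normal cells (log axis) for each gene in 5 groups; circles with lines are ratios with 95% counting intervals, coloured where the ratio was at least 2 (red) or at most 0.5 (blue) with an interval clear of 1 and grey otherwise, and arrowheads are lower bounds from 3 counts where the normal group had 0. Acta2 stood at 80.0 in stellate-like, 22.7 in portal-fibroblast-like and 33.8 in sinusoidal endothelial-like cells, and above 63.1 in lymphoid cells.

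Within the stellate-like cells of the fibrosis library, Acta2, Tagln, Myh11, Myl9, Tpm1, Tpm2, Des and Cald1 were lower per 10000 UMIs in each kind of sub-cluster with other markers than in the stellate sub-clusters, apart from Tpm2 in cycling cells. Acta2 was at 3.02 (0.461 times the stellate sub-clusters, 0.420 to 0.506) in the 132 cells with endothelial markers, at 1.99 (0.304 times, 0.266 to 0.346) in the 59 with macrophage markers and at 3.68 (0.562 times, 0.512 to 0.617) in the 89 with cell cycle markers. Tpm2 in the cycling cells was at 2.52, or 1.43 times (1.23 to 1.67) the stellate sub-clusters. The sub-clusters with other markers were deeper, with medians of 23511 (endothelial), 27564 (macrophage) and 32134 (cell cycle) UMIs against 9760, and counted per cell the order was another. Acta2 was then at 7.15 UMIs in the stellate sub-clusters, 7.76 in those with endothelial, 5.41 in those with macrophage and 11.3 in those with cell cycle markers. Tagln was at 10.02, 14.5, 10.02 and 16.1 in the same order, and all 8 genes were higher per cell in cycling cells than in the stellate sub-clusters. The sub-clusters with macrophage markers had a median doublet score of 0.170, those with endothelial markers 0.1003 and those with cell cycle markers 0.0940, against 0.0593 in the stellate sub-clusters. In the normal library the score was 0.143 in the cycling and 0.0386 in the stellate sub-clusters. The part of doublets and of depth in these differences was not tested. The 2 stellate sub-clusters of the whole mesenchymal re-clustering differed from each other as well, with Acta2 at 11.8 (11.2 to 12.5) in 56 cells led by Ankrd1 and at 5.66 (5.01 to 6.36) in 69 cells led by S100a8.

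Among single cells of the fibrosis stellate sub-clusters Acta2 was unevenly spread. The lower quartile was 0, the median 1.55, the upper quartile 6.33 and the maximum 59.9 UMIs per 10000, and 3 of the 115 cells held 38.7% of the UMIs. In the 81 cells with at least 5000 UMIs, the log levels of Acta2 and Tagln correlated over cells at r = 0.68, Acta2 and Tpm1 at 0.68 and Tagln and Myl9 at 0.73. Acta2 and Des correlated at 0.02. In 71 portal-fibroblast-like cells of the same depth the values were 0.69 for Acta2 and Tagln, 0.77 for Tagln and Myl9, and -0.05 for Acta2 and Des. The cells share a library, and the correlation of Acta2 with depth was 0.16 and 0.33 in the 2 groups. Cells rich in Acta2 were thus also rich in Tagln, Tpm1 and Myl9. Des correlated weakly with Tagln (0.16 and 0.15), Tpm1 (0.15 and 0.17) and Myl9 (0.16 and 0.23) in the 2 groups. Depth correlated with Tagln at 0.22 and 0.43 and with Tpm1 at 0.16 and 0.56, and its part was not tested.

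**Figure D3:**
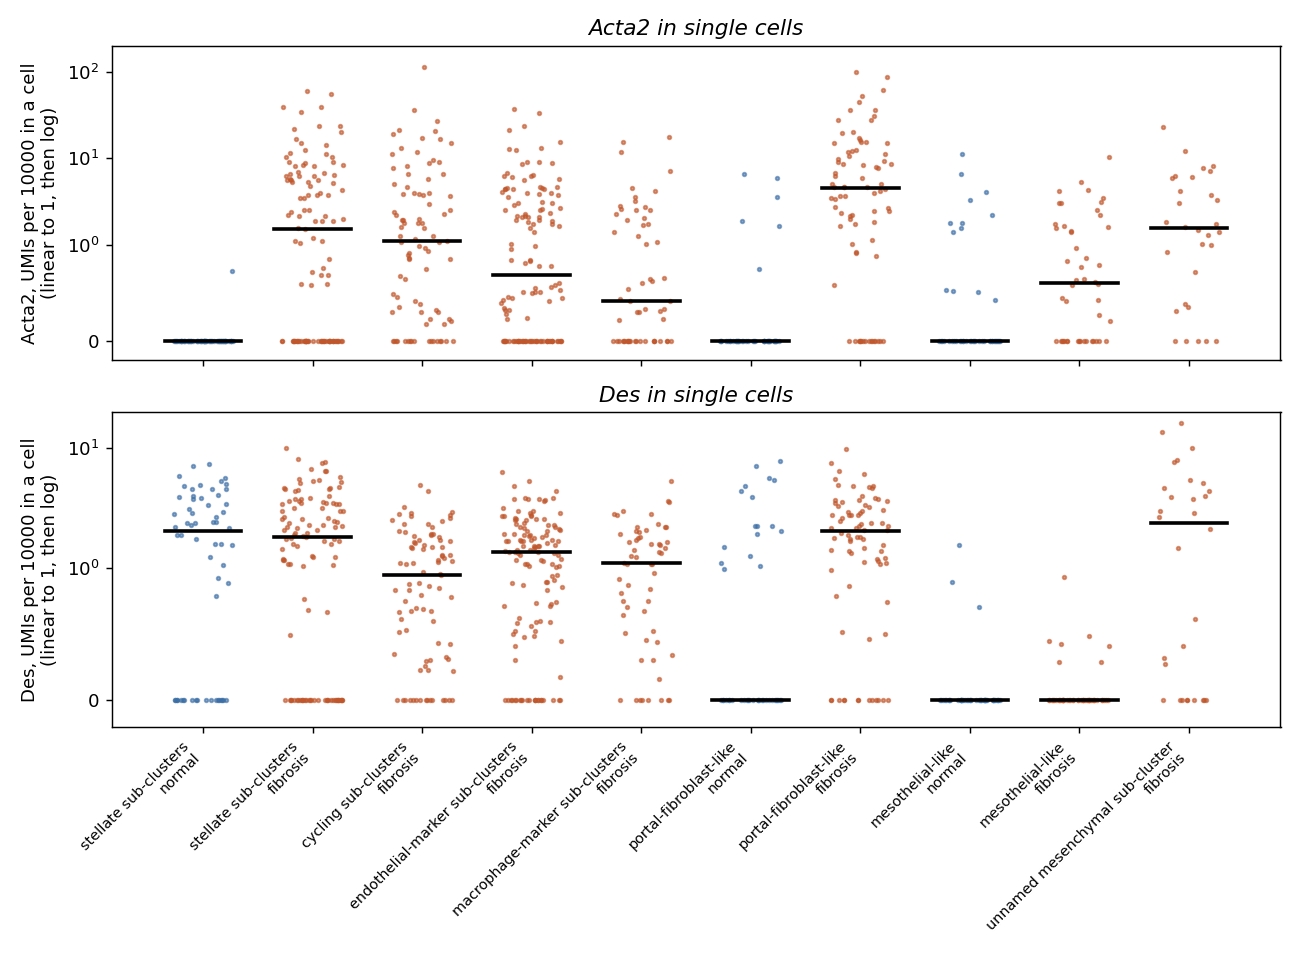
Acta2 (top) and Des (bottom) in single mesenchymal cells (points, UMIs per 10000 in the cell, axis linear to 1 and logarithmic above) by group, with a bar at the median; normal cells are blue and fibrosis cells red. The median of Acta2 was 0 in the normal and 1.55 in the fibrosis stellate sub-clusters, while that of Des was 2.01 and 1.81.

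Of the named classes, portal-fibroblast-like cells held the highest levels of Acta2 and Tagln in the fibrosis library. Here too 6 members were called higher: Acta2, Tagln, Myh11, Myl9, Tpm1 and Actg2. The background was 8.34% of 10906 genes, and all 10 members passed the filter on low counts. Acta2 was at 0.590 (0.365 to 0.903) in the 44 normal cells, with 10 of its 21 UMIs in 1 cell, and at 13.4 (12.8 to 14.1) in the 80 fibrosis cells, a ratio of 22.7 (14.8 to 36.8). Tagln was at 0.590 (0.365 to 0.903) and 12.8 (12.2 to 13.4), a ratio of 21.7 (14.2 to 35.2). Of its 21 normal UMIs 11 were in 1 cell, and without the 3 cells of the class that held most Tagln in each library the ratio was 169.5. In fibrosis 80.0% of the cells held an Acta2 UMI and 93.8% a Tagln UMI, and after thinning 38.8% and 53.8%. Both genes were thus seen in most portal-fibroblast-like cells before thinning, with a median of 4.55 UMIs per 10000 for Acta2, but unevenly, as 3 of the 80 cells held 35.9% of the Acta2 and 23.7% of the Tagln UMIs. Per droplet Tagln was at 21.1 UMIs in these cells and at 0.0922 in the shallower lymphoid droplets of the same library.

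Of the myosin genes, Myh11 was at 0.197 (0.0791 to 0.406) in normal and 1.41 (1.22 to 1.63) in fibrosis portal-fibroblast-like cells, a ratio of 7.17 (3.41 to 18.1) that rests on 7 normal UMIs, 6 of them in 1 cell. It ran from 4.707 to 47.09 over the settings tried, the latter after cells in the top 5% of doublet scores were left out. Myl9 was at 1.55 (1.16 to 2.01) and 3.13 (2.83 to 3.44), a ratio of 2.02 (1.52 to 2.73) that fell to between 1.669 and 1.931 under 3 of the settings and then was not called. Tpm1 was at 1.996 (1.56 to 2.52) and 10.9 (10.3 to 11.5), a ratio of 5.45 (4.29 to 7.02). Tpm2, Des and Cald1 were higher by less than 2 times, with ratios of 1.68 (1.26 to 2.28), 1.60 (1.20 to 2.18) and 1.92 (1.63 to 2.28). Over the settings tried these ran from 1.639 to 3.43, from 1.505 to 3.269 and from 1.857 to 3.914, so that each passed 2 in some setting. Actg2 had 25 UMIs in fibrosis and 0 in normal cells and was at least 2.25-fold higher against a floor of 3 counts in the normal group, but 17 of the 25 UMIs were in 1 cell, and with a resolution of 1.5 the bound was 1.35 and not called. Cnn1 had 10 UMIs in fibrosis, 5 of them in that same cell.

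The 2 mesenchymal populations differed from each other in both libraries. In fibrosis, Acta2 in portal-fibroblast-like cells was 2.05 times (1.89 to 2.23) that in the stellate sub-clusters and Tagln 1.40 times (1.29 to 1.51), while Des was 0.847 times (0.727 to 0.988) and Cald1 0.811 times (0.749 to 0.878). Myh11 did not differ beyond its interval from the stellate sub-clusters (1.11 times, 0.897 to 1.39). Its level of 1.41 (1.22 to 1.63) was above that of all stellate-like cells, and counted per cell it was higher than in the stellate sub-clusters. The order for Des and Cald1 depended on the measure. Counted per cell they were 1.28 times (1.10 to 1.49) and 1.22 times (1.13 to 1.32) the stellate sub-clusters, and against all stellate-like cells their levels were 1.45 times (1.29 to 1.64) and 1.15 times (1.08 to 1.22). The stellate sub-clusters were also unlike each other, and the one led by Ankrd1 held Tagln at 12.8 (12.1 to 13.5), as portal-fibroblast-like cells did, against 8.65 (7.85 to 9.51) in the one led by S100a8. In normal cells the order for Tagln was the opposite, at 0.442 times (0.254 to 0.740) the stellate sub-clusters. Tpm2 was 2.87 times (1.73 to 4.89) and Acta2 25.2 times (4.05 to 1041) as high there, the latter against 1 UMI. Des was 0.617 times (0.436 to 0.864). Normal stellate sub-clusters thus held more Tagln and Des, and normal portal-fibroblast-like cells more Tpm2, while against all normal stellate-like cells Des did not differ beyond its interval (0.953 times, 0.694 to 1.29).

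In mesothelial-like cells, which line the liver surface, none of the 6 members that passed the filter was called higher, against 11.2% of 10741 genes. Tpm1 and Cald1 were called lower by the mirrored rule, against 6.68% of genes. Both calls ended with a mitochondrial limit of 5%, at ratios of 0.7467 and 0.512, and that of Tpm1 also with UMIs per cell, at 0.6085. Tpm1 was at 6.41 (5.77 to 7.11) in the 45 normal cells and 2.66 (2.33 to 3.03) in the 48 fibrosis cells, a ratio of 0.415 (0.351 to 0.491). Cald1 was at 11.1 (10.2 to 11.98) and 3.26 (2.89 to 3.66), a ratio of 0.294 (0.255 to 0.339). In the normal library these cells held the highest level of both genes of the groups described, and in fibrosis they lay below stellate-like and portal-fibroblast-like cells. The mesothelial marker Msln was lower as well (18.6 and 6.21), and the part of cell identity in the lower Tpm1 and Cald1 was not tested.

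Acta2 was present in normal mesothelial-like cells at 0.732 (0.526 to 0.994), 16.7 times (7.05 to 48.1) the level in normal stellate-like cells. In fibrosis it was at 1.21 (0.992 to 1.47), a ratio of 1.65 (1.14 to 2.43), and then lay at 0.345 times (0.282 to 0.419) the stellate-like level. Tagln was at 0.518 (0.347 to 0.744) and 0.320 (0.213 to 0.463), which do not differ beyond counting error (ratio 0.618, 0.354 to 1.08). Tpm2 was at 0.429 (0.275 to 0.638) and 0.332 (0.222 to 0.476), which do not differ beyond counting error either (ratio 0.773, 0.435 to 1.39). Over the settings tried this Tpm2 ratio ran from 0.462 to 3.751. Myh11, Myl9 and Des had 11 UMIs or fewer in either library. Actg2 had 1 UMI in fibrosis and none in normal cells, and Cnn1 had none in either, which allows a level of up to 0.0659 in normal and 0.0422 in fibrosis. In fibrosis, Acta2 in mesothelial-like cells was 3.40 times (2.54 to 4.56) and Tagln 1.05 times (0.656 to 1.64) the lymphoid level, so that Tagln there was not above the lymphoid level per 10000 UMIs. Counted per droplet, which is not corrected for depth (medians of 16072.5 and 2555 UMIs), Acta2 was 20.5 times (15.3 to 27.4) and Tagln 6.33 times (3.95 to 9.86) the lymphoid value. A further sub-cluster of 30 fibrosis cells, led by Cxcl5 and Fndc1, stayed unnamed. It held Acta2 at 4.19 (3.76 to 4.65), Des at 3.43 (3.05 to 3.85) and Cald1 at 10.4 (9.70 to 11.1), but Myh11 at 0.0236, from 2 UMIs, and Myl9 at 0.118 (0.0566 to 0.217).

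In sinusoidal endothelial-like cells 5 members met the rule for higher in fibrosis: Acta2, Tagln, Myl9, Tpm2 and Des. The background was 8.15% of 13895 genes, and 8 members passed the filter. Acta2 was at 0.00588 (0.00216 to 0.0128) and 0.199 (0.173 to 0.227), a ratio of 33.8 (15.3 to 93.1), and Tagln at 0.00883 (0.00404 to 0.0168) and 0.194 (0.169 to 0.222), a ratio of 22.0 (11.4 to 48.8). With a resolution of 1.5 these ratios were 4.437 and 4.16, and that of Des, 2.85 (1.65 to 5.16), was 1.108 and not called. Des was not called with a mitochondrial limit of 5% (1.345) or after subtraction of the UMIs per lymphoid droplet (1.987) either. Cnn1 and Actg2 had no UMI in sinusoidal endothelial-like cells of either library, where the floor of 3 counts is a level of 0.00294 in normal and 0.00270 in fibrosis. In lymphoid cells (B-like and NK/T-like cells combined), which should lack Acta2 and Tagln, 7 members met the rule against 11.9% of genes. Lymphoid Acta2 went from 0 of 5315576 UMIs to 0.356 (0.286 to 0.438), at least 63.1-fold higher against 3 counts over the group, and Tagln from 0.00941 to 0.305 (0.241 to 0.381).

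Set against lymphoid cells of the same library, endothelial Acta2 in fibrosis was 0.558 times (0.435 to 0.721), Tagln 0.638 times (0.489 to 0.838) and Myh11 0.284 times (0.124 to 0.665) the lymphoid level. Myl9, Tpm2 and Des were at 0.736, 0.868 and 0.707 times, with intervals that included 1. By this measure 1 of the 8 members tested, Cald1, was at least 2 times its lymphoid level, against 13.3% of 13549 genes. Counted per droplet, Acta2 was at 0.160 UMIs in sinusoidal endothelial-like, 0.145 in erythroid-like and 0.108 in lymphoid droplets, but at 8.04 in stellate-like and 22.1 in portal-fibroblast-like cells. On this scale the sinusoidal value was 1.48 times (1.15 to 1.91) the lymphoid one for Acta2 and 1.69 times (1.30 to 2.22) for Tagln, so that the order of both groups turned with the scale. For every 100 UMIs of Col1a1, a collagen gene of mesenchymal cells, there were 16.7 (14.4 to 19.2) Acta2 UMIs in sinusoidal endothelial-like, 16.8 (13.3 to 21.0) in lymphoid and 20.2 (15.9 to 25.4) in erythroid-like droplets. After thinning, 3.20% of sinusoidal endothelial-like (median 7455.5 UMIs) and 3.97% of lymphoid cells (median 2555) held an Acta2 UMI, against 14.3% and 10.4% before thinning. The thinned share in endothelium was thus not above that in lymphoid cells, while the share before thinning was higher in the deeper endothelial cells. Whether these cells express Acta2 was not tested. The part of free RNA in the endothelial values was not tested.

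**Figure D4:**
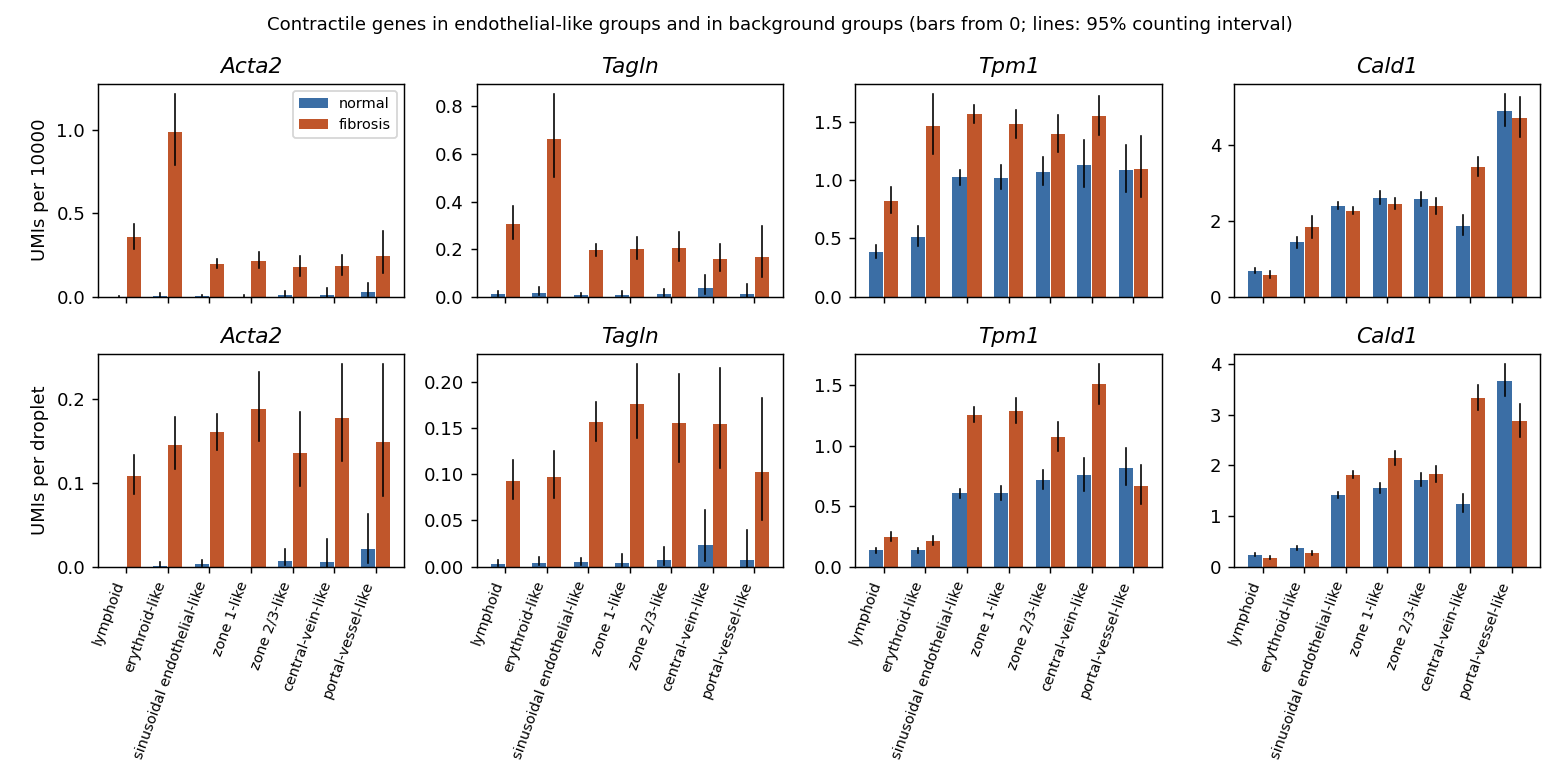
Acta2, Tagln, Tpm1 and Cald1 in background groups (lymphoid, erythroid-like) and in endothelial-like groups, as UMIs per 10000 (top) and UMIs per droplet (bottom), normal in blue and fibrosis in red, with lines for the 95% counting interval. In the fibrosis library Acta2 per droplet was 0.160 in sinusoidal endothelial-like and 0.108 in lymphoid droplets, whereas Tpm1 and Cald1 were at 1.26 and 1.82 in the former and 0.249 and 0.174 in the latter.

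Tpm1 and Cald1, which have non-muscle forms, were above the lymphoid level in endothelium in both libraries. Erythroid-like droplets, which were shallow, held Tpm1 at 1.47 and Cald1 at 1.83 per 10000 in fibrosis, but at 0.215 and 0.268 per droplet. Endothelial Tpm1 was at 1.02 (0.964 to 1.09) in normal and 1.57 (1.49 to 1.64) in fibrosis sinusoidal cells, 2.64 times (2.28 to 3.09) and 1.90 times (1.65 to 2.21) the lymphoid level. Its ratio of fibrosis over normal was 1.53 (1.42 to 1.65), while that in lymphoid cells was 2.12 (1.74 to 2.59). Cald1 was at 2.39 (2.30 to 2.49) and 2.26 (2.18 to 2.36), 3.51 times (3.14 to 3.93) and 3.95 times (3.34 to 4.70) the lymphoid level, with a ratio of fibrosis over normal of 0.946 (0.894 to 1.0004).

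Cald1 differed along the vessels. Portal-vessel-like cells held 4.90 (4.49 to 5.35) in the normal and 4.71 (4.20 to 5.27) in the fibrosis library, 2.05 times (1.86 to 2.25) and 2.08 times (1.84 to 2.34) the sinusoidal level. The zone 1-like and zone 2/3-like sinusoidal cells did not differ beyond their intervals, at 2.61 and 2.56 in the normal and 2.45 and 2.38 in the fibrosis library. Central-vein-like cells lay below sinusoidal cells in the normal library, at 1.87 (1.63 to 2.14), and above them in fibrosis, at 3.43 (3.18 to 3.68), with a ratio of fibrosis over normal of 1.83 (1.57 to 2.15). Portal-vessel-like cells gave 0.961 (0.832 to 1.11) for the same ratio. Acta2 in central-vein-like cells of the fibrosis library (0.181) was 0.509 times (0.340 to 0.749) the lymphoid level of 0.356, but 1.64 times (1.09 to 2.41) the lymphoid value per droplet. In portal-vessel-like cells (0.243) it did not differ from the lymphoid level beyond its interval, at 0.683 times (0.374 to 1.17), or 1.37 times (0.754 to 2.36) per droplet.

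Other genes of the contractile and actin machinery were taken from a list of 65. At least 1 UMI per 10000 in either library was reached by 39 of them in stellate-like cells. Of these, 3 (7.69%) were called higher in fibrosis, 1 (2.56%) lower and 35 neither, against 5.03% higher and 4.69% lower of all 2326 genes at that level. The median ratio of the 39 was 1.29 and that of the 2326 was 1.05. In the stellate sub-clusters 9 of the 39 were called higher and 1 lower, against 7.22% higher and 6.49% lower of the same 2326 genes.

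The 5 largest ratios were those of the non-muscle myosin heavy chain Myh10 (3.02, 2.27 to 4.10), the actin cross-linker Actn1 (2.72, 2.32 to 3.19), the intermediate filament protein Vim (2.25, 2.09 to 2.43), Csrp2, a LIM protein of smooth muscle (1.96, 1.61 to 2.40), and filamin Flna (1.93, 1.73 to 2.17). Mylk, the kinase that phosphorylates Myl9, was at 3.30 and 6.26, a ratio of 1.90 (1.72 to 2.09), and of 2.41 (2.08 to 2.81) in the stellate sub-clusters. There the order was another, and the 5 largest ratios were those of Vim (3.49, 3.01 to 4.08), Palld (3.27, 2.27 to 4.86), Actn1 (3.07, 2.36 to 4.06), Pdlim7 (2.81, 1.88 to 4.35) and Csrp1 (2.51, 1.84 to 3.51). The 4 smallest in all stellate-like cells were Mustn1 (0.304, 0.265 to 0.349), a musculoskeletal nuclear protein, at 2.30 in normal and 0.700 in fibrosis cells, followed by Slmap (0.642), Ppp1r14a (0.840), an inhibitor of myosin phosphatase, and the calcium release channel Itpr1 (0.849). The kinases Rock1 and Rock2, the GTPase Rhoa, the myosin phosphatase subunits Ppp1r12a and Ppp1cb and the light chains Myl6, Myl12a and Myl12b, which like Mylk were picked for their role after the values had been seen, lay between 0.959 and 1.52.

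Over the 32 named groups of both libraries with at least 20 cells, the genes whose log2 levels were most like those of Acta2, of 5755 genes ranked, were Col1a1 (r = 0.92), Tagln (0.90) and Col1a2 (0.89). For Tagln they were Col5a1 (0.94), Pdgfrb (0.93) and Tnc (0.93), and for Myh11 Ccdc3 (0.97), Myl9 (0.96) and Tnc (0.96). Des was most like Myl9 (0.97), Srpx2 (0.97) and Angptl2 (0.97), and Cald1 like Parva (0.94), Nedd4 (0.91) and Yap1 (0.90). The groups of a library share its preparation and its free RNA, so that these values describe the libraries as a whole.

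A single cell of the normal library stood apart, and was singled out after its values had been seen. It held 3785 UMIs, of which 42 were of Acta2, 39 of Tagln, 19 of Myh11, 15 of Myl9, 14 of Tpm1, 15 of Tpm2, 5 of Actg2, 8 of Des and 9 of Cald1, or 439 UMIs of members per 10000. It also held 7 UMIs of Pln, 7 of Mustn1, 6 of Mylk and 3 of Lmod1, genes of contractile muscle, and none of Lrat, Reln, Msln, Dpt or Col1a1. This cell carried 27.6% of the 152 Acta2 UMIs, 23.2% of the 82 Myh11 UMIs and 5 of the 6 Actg2 UMIs of all normal cells kept. It lay in the mesothelial cluster of the library and in a sub-cluster named stellate on re-clustering, and so in none of the classes compared above.

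Platelets carry Myl9 as well, and the summed level of 5 platelet genes (Pf4, Ppbp, Gp9, Itga2b, Gp1bb) was 0.972 (0.814 to 1.15) in normal and 1.05 (0.982 to 1.12) in fibrosis stellate-like cells, with 3 and 0 of the genes at 0. In fibrosis macrophage- or monocyte-like cells, where the same sum was 5.34 (5.18 to 5.51), Myl9 was at 0.0375. Pf4 was also among the genes that led this macrophage or monocyte cluster and 1 normal Kupffer-like cluster, so that the sum does not mark platelets alone. The part of platelets in the Myl9 levels was not tested.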

How the data were processed

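Single-cell counts of 2 libraries, 1 mouse per condition, were analysed. The authors mapped the reads with Cell Ranger 3.0.1 to mm10, and deposited UMI counts per gene and cell that are not normalized. The libraries held 8130 and 6437 cells with 44062632 and 53288463 UMIs (medians of 4144.5 and 5619 per cell), and 15 barcodes occur in both. Cells with at least 10% mitochondrial UMIs or no more than 200 genes were left out. Each library was clustered apart (scanpy 1.11.5, Leiden, 2000 variable genes, 10 components, 20 neighbours, resolution 0.8), and mesenchymal and endothelial cells were clustered again, always without the members and the other contractile genes. Clusters were named from marker lists, by a rule that was settled after clusters had been seen and that counts zone and vessel markers as endothelial at the first step. Scrublet scores were used, but as a caller it marked 0 cells, so doublets were not removed.

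UMIs were summed per class, with exact Poisson (levels), exact conditional (ratios) and exact binomial (shares, after thinning to 1000 UMIs) 95% intervals, which cover counting error only. A count of 0 was replaced by a floor of 3 counts over the group. Background shares use genes with at least 10 UMIs over both groups. All members are named in each class, and of 65 other contractile genes the 5 largest and 5 smallest ratios at 1 UMI per 10000 or more, 1 of which is not reported here. Likeness used log2 of the level plus 0.1. Scripts were tested on simulated data. The members and lists were chosen with earlier results of these data known. Alternatives were the mitochondrial limit, the resolution, the variable genes, doublet scores, cell weighting, top cells and the free RNA background, of which subtraction per erythroid-like droplet was chosen after seeing the data.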

Additional observations from a re-analysis of the deposited data

Results flagged for a closer look

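In mesothelial-like cells Tpm1 and Cald1 were called lower in fibrosis, while their ratios lay above 1 in stellate-like and portal-fibroblast-like cells. The ratio of fibrosis over normal for Tpm1 was 3.398 in stellate-like, 5.449 in portal-fibroblast-like, 1.529 in sinusoidal endothelial-like and 0.4154 in mesothelial-like cells. The stellate-like ratio was thus 8.181 times and the portal-fibroblast-like ratio 13.12 times the mesothelial-like one, and the mesothelial-like ratio was 0.2717 times the sinusoidal one. For Cald1 the ratios were 1.293, 1.921 and 0.2942 in stellate-like, portal-fibroblast-like and mesothelial-like cells, which differ 4.395 times and 6.531 times. With a mitochondrial limit of 5% the mesothelial-like ratios were 0.7467 for Tpm1 and 0.512 for Cald1, and neither was called lower. With 1 library per condition these differences were not tested.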

How the results depend on the processing

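Of 453 recomputed values 362 moved by less than the limit set for them, 89 moved further and 2 turned direction. The ratio of sinusoidal endothelial-like over lymphoid cells in fibrosis became 1.481 for Acta2 and 1.692 for Tagln with UMIs per cell. In all, 27 values fell on the other side of 1, of which the other 25 had an interval that included 1 before or after. The 6 members called higher ranged from 4 to 8 in stellate-like cells, the 6 from 5 to 9 in portal-fibroblast-like cells and the 5 from 4 to 7 in sinusoidal endothelial-like cells. The share of all genes called is known for the main settings only. These counts and those that follow therefore have no background beside them and are not read as results about the members. UMIs per cell raise the ratio of every gene in these classes, whose fibrosis cells were deeper. In mesothelial-like cells the count of 0 became 3 with a mitochondrial limit of 5%, and 1 with a resolution of 1.5, with UMIs per cell and without the 3 cells that held most UMIs of the gene. The 11.2% of genes called higher there belongs to the main settings alone. At least 2 times the lymphoid level was reached by 3 members in place of 1 with UMIs per cell, a scale for which no share of all genes is known. The cause was not tested. Acta2 ratios ranged from 10.95 (members among the variable genes) to 279.2 (stellate sub-clusters) in stellate-like cells, 22.59 to 57.96 in portal-fibroblast-like cells and, in mesothelial-like ones, 1.545 to 5.384. In sinusoidal endothelial-like cells those of Acta2 ranged from 4.437 to 64.98, of Tagln from 4.16 to 32.92 and of Des from 1.108 to 12.23. The called Tpm1 and Cald1 ratios in mesothelial-like cells ranged from 0.3431 to 0.7467 and from 0.254 to 0.512, and that of Actg2 in portal-fibroblast-like cells from 1.35 to 4.583. A limit of 5% left no portal-fibroblast-like class to compare. No paired analysis was possible because each condition is 1 library. Genes with few UMIs in the normal classes, such as Acta2, Myh11, Cnn1 and Actg2, are limited by depth.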

Other observations

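Normal neutrophil-like cells held 21 Acta2 UMIs in 18 of 191 cells, a level of 0.350 (0.216 to 0.534) UMIs per 10000, while the 1527 normal lymphoid cells held 0. The same neutrophil-like cells held 2 UMIs of Tagln and 2 of Col1a1. They were singled out after their values had been seen.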
